A study of Mus musculus with 12 samples.

Results

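The 10 genes described here, Fos, Fosb, Jun, Junb, Jund, Egr1, Egr2, Egr3, Atf3 and Ier2, encode transcription factors and 1 nuclear regulator of the immediate early class. They were taken by name, with earlier results of these data known, and all 10 are among the 24421 genes of the authors' deposited table. Bulk RNA was measured in 12 mouse libraries. In the first group, WT_MSC, 3 libraries came from mesenchymal stem cells (MSCs) of p53 wild-type mice. The second, KO_MSC, held 3 libraries of MSCs from p53 knockout mice, and the third, KO_tumor, held 6 libraries of sarcomas from bone or bone marrow of p53 knockout mice. The labels call every library freshly isolated and name no other treatment. The labels give no age, sex, Cre driver or deleted part of the gene. Nor do they tie libraries to animals, so a p-value here reflects library-to-library spread that may be technical. MSCs were dissociated and sorted as CD45-, Ter119- and CD31- cells positive for LepR (the leptin receptor) and CD140a (PDGFRA). For tumors the protocol names TRIzol extraction and describes no sort, although their cell type label is tumor cell. Handling therefore goes with the groups. A difference between tumors and MSCs cannot be told apart from one between material with no described sort and dissociated, sorted material.

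Immediate early genes are transcribed within minutes of a growth factor, stress or mechanical stimulus, without new protein synthesis, because the factors at their promoters are already present in the resting cell. MAP kinases act on ELK factors bound with SRF and on CREB at these promoters. The resulting mRNAs and proteins are short-lived. Fos and Jun proteins pair through leucine zippers to form AP-1, EGR proteins bind GC-rich sites through zinc fingers, and many of the proteins made in the first wave, such as phosphatases and mRNA-decay factors, shut the response down. Transcripts of several of these genes are known to rise while tissue is dissociated into single cells. MSCs went through that step, and its part in the values was not tested.

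All values are the authors' variance-stabilized and batch-adjusted log2 values. Near its lower end the scale flattens out, and differences of weakly expressed genes come out too small. The depth per library is unknown, and no gene length entered the values, so each gene is compared with itself across libraries and not with the other genes. Exactly shared floor values divide the libraries into 2 batches. Batch 1 holds WT_MSC 1, the library labelled KO_MSC 1 and tumors 1 to 3, and batch 2 holds the other 7 libraries. The libraries labelled KO_MSC 1 and WT_MSC 1 stand apart by having only 2642 and 3736 genes at the floor, against 9277 to 12398 in the rest. Trp53, the targeted gene, was 9.96 to 10.61 in WT MSCs and 6.79 to 9.16 in tumors. The library labelled KO_MSC 1 had 10.49, within the WT range and against its label, the one labelled KO_MSC 2 had 9.76, just below that range, and KO_MSC 3 had 6.96. A value per gene does not show a deletion of some exons, so this check of the label is limited. Where a group of KO MSCs is named below, it is the group so labelled.

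Promoters are shown first, since transcription of these genes starts from factors already bound there. The 250 bases before a RefSeq (GRCm38.p6) start site were searched for 7 of the 10 genes, Fos, Fosb, Jun, Junb, Jund, Egr2 and Atf3. Promoters of Egr1, Egr3 and Ier2 are not reported here. For Jund this start lies upstream of the gene position given further on, and for Atf3 it lies inside the gene's span, so both windows belong to other start sites than those positions. The core of the CREB and ATF site, TGACG on either strand, was present in 5 of these 7 genes (Fos, Fosb, Junb, Egr2 and Atf3), against 17.8% of 32851 promoters of the same length. A gene was counted if any of its promoters held the core, while the background is per promoter. Egr2 has 5 promoters in that set, 3 of them with the core, and these 3 overlap and share the same sites. It was found in neither Jun nor Jund. The promoters of 4 genes with the core are printed below, in the gene's own direction, because 3 of them were lower and 1 was higher in tumors than in MSCs. Capitals mark TGACG or its reverse complement CGTCA in all 4, and also TATAAA in Fos and GCGNGGGCG, the EGR site, in Fosb.
Fos, chr12:85473640-85473889, plus strand: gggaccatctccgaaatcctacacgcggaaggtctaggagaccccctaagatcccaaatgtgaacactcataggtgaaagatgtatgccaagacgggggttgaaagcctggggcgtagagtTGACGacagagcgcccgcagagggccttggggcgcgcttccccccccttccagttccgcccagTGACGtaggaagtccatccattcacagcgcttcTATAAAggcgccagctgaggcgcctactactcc
Fosb, chr7:19310046-19310295, minus strand: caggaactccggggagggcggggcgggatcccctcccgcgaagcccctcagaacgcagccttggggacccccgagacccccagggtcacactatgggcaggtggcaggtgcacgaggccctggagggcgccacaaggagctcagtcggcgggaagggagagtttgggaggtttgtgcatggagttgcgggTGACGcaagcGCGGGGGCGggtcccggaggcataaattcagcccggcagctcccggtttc
Junb, chr8:84978749-84978998, minus strand: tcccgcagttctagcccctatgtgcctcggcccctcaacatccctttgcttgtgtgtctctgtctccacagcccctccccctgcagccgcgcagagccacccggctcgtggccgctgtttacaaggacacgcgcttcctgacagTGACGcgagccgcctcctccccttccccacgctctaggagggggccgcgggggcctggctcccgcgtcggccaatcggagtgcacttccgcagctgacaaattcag
Atf3, chr1:191183334-191183583, minus strand: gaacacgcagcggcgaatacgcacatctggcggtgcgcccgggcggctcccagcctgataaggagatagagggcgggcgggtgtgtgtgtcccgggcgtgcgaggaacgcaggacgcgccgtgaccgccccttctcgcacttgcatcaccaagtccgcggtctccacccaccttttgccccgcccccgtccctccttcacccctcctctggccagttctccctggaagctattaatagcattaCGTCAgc

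Fos has 2 cores, 129 and 66 bases before the start, and a TATAAA box 33 bases before it. TATAAA was in 12.4% of all promoters and in none of the other 6 genes. Fosb carries its core 60 bases before the start and the EGR site 50 bases before it; that site was in 4.70% of promoters and in no other gene of the 7. In Junb the core lies 106 bases before the start, and in Atf3 it lies 7 bases before it. The CArG box bound by SRF was found in 4 of the 5 promoters of Egr2 and in 1.47% of all promoters. Several of these Egr2 windows overlap and hold the same box, so they are not separate matches. The full palindrome TGACGTCA (1.55% of promoters) and the AP-1 site TGANTCA (6.75%) were in none of the 7 genes. A match is a description of letters in this window, and no match says nothing about the factor. TGACG overlaps TGACGTCA by construction.

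Fos (chromosome 12, 85473890 to 85477273, plus strand, mm10) is the founding partner of AP-1. It was 12.79, 11.51 and 12.92 in WT_MSC 1 to 3 and 11.92, 9.68 and 10.56 in the libraries labelled KO_MSC 1 to 3. In the 6 tumors it ranged from 6.77 in tumor 2 through a median of 8.66 to 9.55 in tumor 3. Every tumor lay below every MSC library. Group means were 12.41 ± 0.78 (SD, n = 3), 10.72 ± 1.13 (SD, n = 3) and 8.46 ± 1.07 (SD, n = 6).

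Fosb (chromosome 7, 19302696 to 19310051, minus strand) encodes a close relative of Fos, with a long-lived splice form known from brain. Its values were 8.28, 6.77 and 7.51 in WT MSCs and 7.48, 6.67 and 9.18 in KO MSCs. Tumors ranged from 4.22 through a median of 5.32 to 5.94, and tumors 1 and 4 were at the floor of their batch (5.28 and 4.22). All tumors again lay below all MSC libraries. With the batch shift taken off, the 2 floor values became 4.75 each, the other tumors 5.28 to 5.89 and MSCs 6.95 to 9.71, still without overlap. The library labelled KO_MSC 3 was the highest of the 12 for Fosb.

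Jun (chromosome 4, 95049034 to 95052222, minus strand), the main partner of Fos in AP-1 and a target of JNK, did not follow Fos. WT MSCs had 11.97, 10.47 and 10.99, and KO MSCs 11.55, 9.45 and 11.86. Tumors divided into 3 at 9.26, 9.36 and 9.43 (tumors 1, 6 and 3) and 3 at 11.51, 11.81 and 12.60 (tumors 2, 5 and 4). Tumor 4 was the highest of all 12 libraries, so the tumor SD of 1.48 (mean 10.66, n = 6) exceeded the difference between any pair of group means. An antisense transcript, Junos, shares exon sequence with Jun, and the library kit does not mark strand.

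Junb (chromosome 8, 84974484 to 84978718, minus strand) is a Jun protein that is often opposed to Jun in growth control. It reached 13.06, 10.52 and 11.31 in WT MSCs and 11.91, 10.02 and 11.42 in KO MSCs. The lowest tumor was 9.25, the median 9.59 and the highest 10.85, in tumor 4. Tumors 4 and 6 (10.24) overlapped the MSC range, and the 4 others lay below it. An exon of Junb overlaps Prdx2, a peroxiredoxin gene on the opposite strand, and reads from the pair cannot be told apart without strand. Prdx2 itself differed between tumors and the mean of both MSC groups by -0.06 ± 0.41 (SE). That value averages unlike differences. Prdx2 was higher in KO than in WT MSCs by 1.49 ± 0.53 (limma adjusted p = 0.551). In tumors against KO MSCs it differed by -0.81 ± 0.53 (limma adjusted p = 0.348). The part of Prdx2 reads in the Junb values was not tested.

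Jund (chromosome 8, 70698949 to 70700616, plus strand), the Jun protein that is present in resting cells and is the least inducible of the family, had the tightest WT values: 11.53, 12.10 and 11.81, with an SD of 0.28 around a mean of 11.81. KO MSCs had 11.36, 10.74 and 9.37. Tumors ran from 7.90 in tumor 6 through a median of 9.0 to 10.08 in tumor 1. Each KO MSC library and each tumor was below each WT MSC library, while KO MSCs and tumors overlapped because of KO_MSC 3. An antisense gene, Gm11175, overlaps an exon of Jund.

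**Figure D1:**
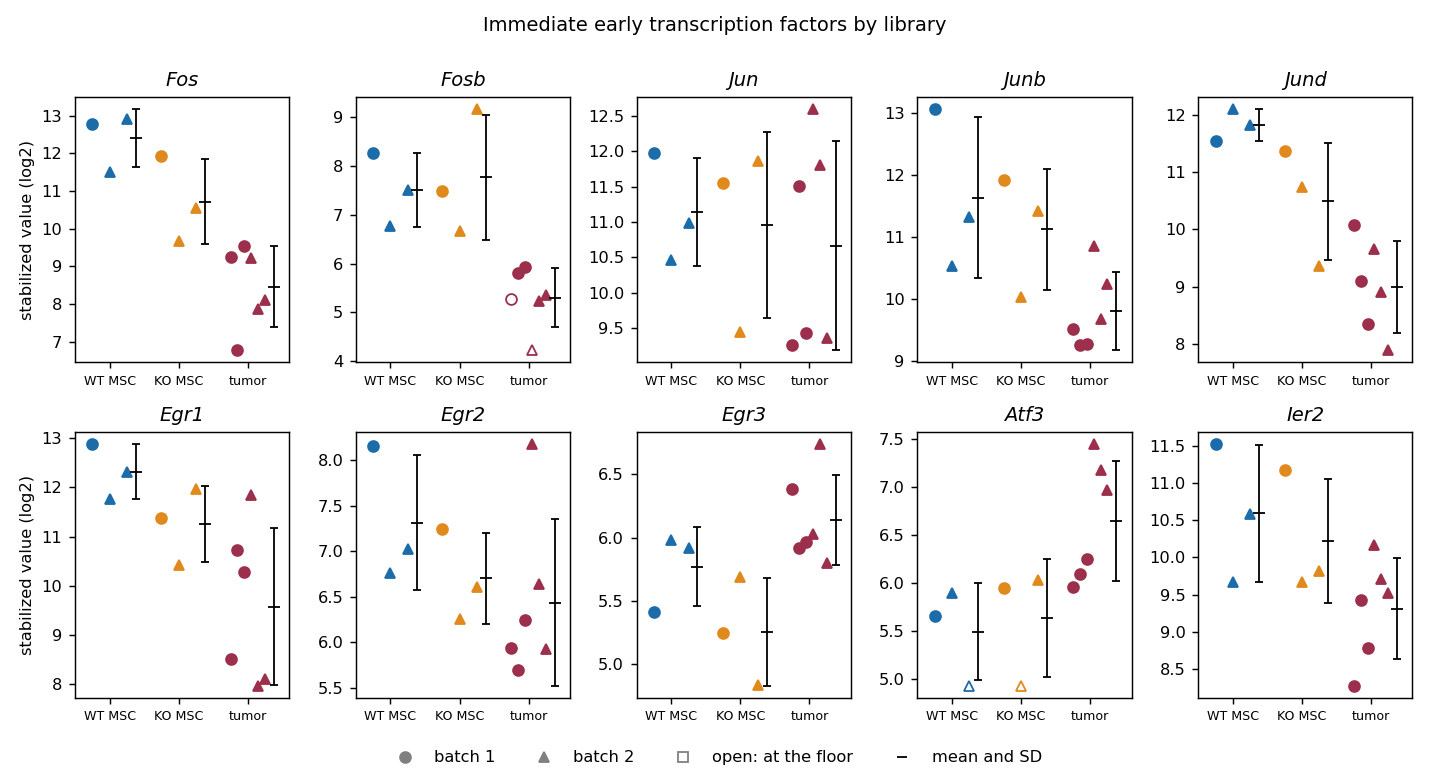
Stabilized log2 value of each of the 10 genes in each library, by group; circles are batch 1, triangles batch 2, open symbols values at the floor, and bars the group mean with its SD. Fos and Fosb are lower in all 6 tumors than in all 6 MSC libraries, the Jun values of tumors fall in a low and a high set, and Atf3 is highest in tumors 4 to 6.

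Egr1 (on chromosome 18) encodes the zinc-finger factor most used as a readout of MAP kinase signalling. It was 12.88, 11.75 and 12.32 in WT MSCs and 11.37, 10.42 and 11.96 in KO MSCs. Among tumors it spread over almost 4 log2 units: 7.96 in tumor 5 was the lowest, 9.40 the median and 11.84 in tumor 4 the highest. Tumors 1, 5 and 6 lay between 7.96 and 8.51, below every MSC library, and tumor 3 (10.28) was just below the lowest MSC library. Tumors 2 and 4 lay within the MSC range.

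Egr2 (chromosome 10, 67535475 to 67542188, plus strand), which also directs myelin formation in Schwann cells, was 8.16, 6.76 and 7.02 in WT MSCs and 7.24, 6.25 and 6.61 in KO MSCs. Tumors had a lowest value of 5.69, a median of 6.09 and a highest of 8.18, the last in tumor 4 and level with WT_MSC 1. The groups overlapped, and without tumor 4 the highest tumor was 6.64. Egr3 (chromosome 14, 70077203 to 70082614, plus strand), a relative that muscle spindles need, stayed near the low end of the scale: 5.41, 5.98 and 5.92 in WT MSCs, 5.25, 5.69 and 4.84 in KO MSCs, and 5.80 to 6.74 (median 6.0) in tumors. All tumors were above all KO MSC libraries for Egr3, while tumors and WT MSCs overlapped.

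Atf3 (chromosome 1, 191170296 to 191218039, minus strand) encodes a stress-induced bZIP factor that can pair with Jun proteins and can repress its own promoter. It was 5.66, 5.90 and 4.93 in WT MSCs and 5.95, 4.93 and 6.03 in KO MSCs, where WT_MSC 3 and KO_MSC 2 were at the floor. Tumors ranged from 5.95 to 7.44 with a median of 6.61, and the 3 tumors of batch 2 (6.97 to 7.44) were above the 3 of batch 1 (5.95 to 6.25). Every tumor was above every WT MSC library for Atf3. Ier2 (chromosome 8, 84661331 to 84662852, minus strand), a small serum-induced protein of nucleus and cytoplasm, was 11.53, 9.67 and 10.58 in WT MSCs and 11.18, 9.67 and 9.81 in KO MSCs. Its tumor values had a lowest of 8.27, a median of 9.48 and a highest of 10.16, and the groups overlapped.

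Comparing the 6 tumors with the mean of both MSC groups asks what separates the sarcomas from stromal cells of either genotype. Of the 10 genes, 5 fell and 1 rose, at an adjusted p under 0.05 by limma, fitted across 18948 genes with Benjamini-Hochberg adjustment. Over all genes, 22.9% passed, 9.47% lower and 13.4% higher. The bZIP genes Fos, Fosb, Jund and Junb fell, as did the zinc-finger gene Egr1, and the bZIP gene Atf3 rose. The median difference of the 10 genes was -1.34 against -0.02 over all genes tested, and 8 of the 10 differences were below 0, against 51.3% of all genes.

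Fos fell by 3.10 ± 0.52 (SE; limma adjusted p = 0.00144), lower in 6 of 6 tumors than in any MSC library. For Fosb the difference was -2.34 ± 0.45 (limma adjusted p = 0.00299), again in 6 of 6 tumors. Jund differed by -2.15 ± 0.42 (limma adjusted p = 0.00308). These were the genes of the 10 that still passed when WT_MSC 1 and the library labelled KO_MSC 1 were both left out, with differences of -2.71, -2.22 and -2.01 and limma adjusted p of 0.0169, 0.0235 and 0.0238. No overlap between tumors and all MSC libraries was seen for 2 of the 10 genes below, where 3.62% of all genes had none in that direction.

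Egr1 fell by 2.21 ± 0.63 (SE; limma adjusted p = 0.0229) and Junb by 1.58 ± 0.47 (limma adjusted p = 0.0282). Both calls were lost without those batch 1 MSC libraries, where the differences were -2.04 (limma adjusted p = 0.120) and -1.02 (limma adjusted p = 0.156). Atf3 rose by 1.08 ± 0.35 (limma adjusted p = 0.0390). That call passed in 11 of 24 other settings, and with quantile scaling its difference was 0.88 and did not pass. Leaving out tumor 5 alone ended the calls of Egr1, Junb and Atf3. So did leaving out WT_MSC 1 or KO_MSC 1, and the call was also lost without tumor 6 for Egr1, without tumor 1, 2 or 3 for Junb, and without WT_MSC 3, KO_MSC 2, tumor 4 or tumor 6 for Atf3. Atf3 is also the gene with 2 MSC libraries at the floor.

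The other 4 genes did not pass. Ier2 differed by -1.09 ± 0.42 (SE; limma adjusted p = 0.0711) and Egr3 by 0.63 ± 0.25 (limma adjusted p = 0.0781). For Egr2 the difference was -0.57 ± 0.44 (limma adjusted p = 0.359) and for Jun -0.38 ± 0.65 (limma adjusted p = 0.690). A p that misses the threshold does not show that tumors and MSCs had equal levels of these genes. In bulk samples fewer cells of a type and less RNA per cell cannot be told apart, which holds for each of these differences.

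**Figure D2:**
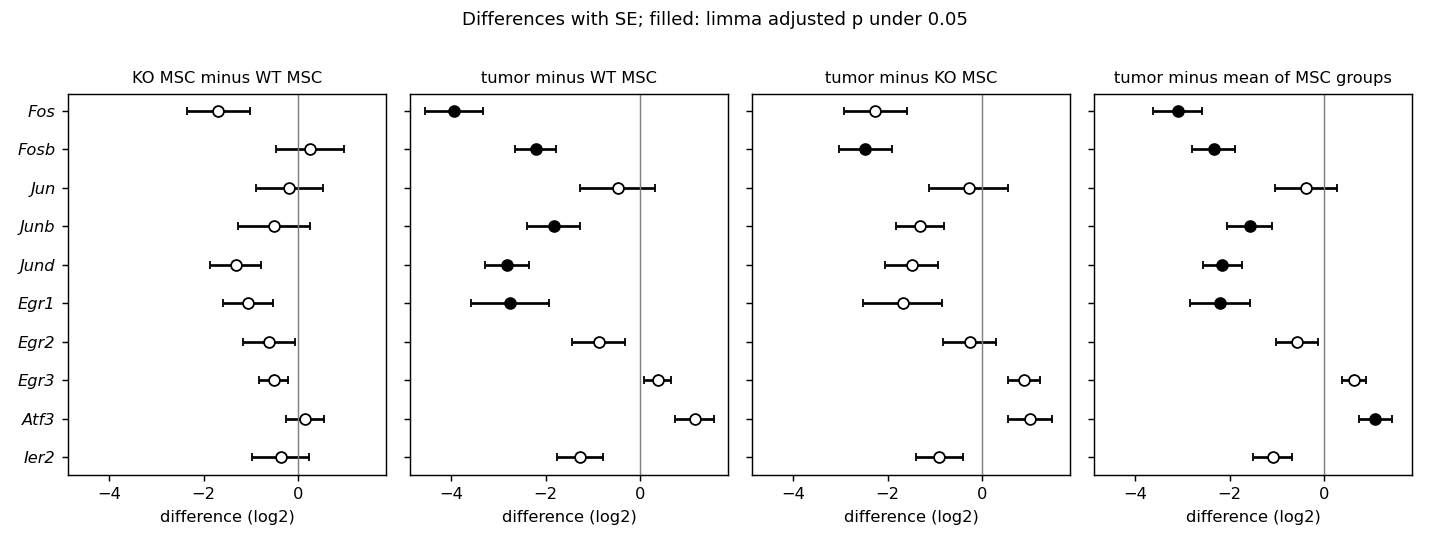
Difference in log2 value for each of the 10 genes in 4 comparisons, with SE; filled points have a limma adjusted p under 0.05. No gene is filled between KO and WT MSCs, and Fos, Fosb, Junb, Jund and Egr1 are filled on the left for tumors against WT MSCs.

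Against WT MSCs alone, the same 5 genes fell, and 21.3% of all genes passed, 10.9% lower. Here Fos fell by 3.95 ± 0.61 (SE; limma adjusted p = 0.00217), Jund by 2.82 ± 0.46 (0.00256) and Fosb by 2.21 ± 0.43 (0.00532). Egr1 differed by -2.75 ± 0.83 (limma adjusted p = 0.0374) and Junb by -1.83 ± 0.55 (limma adjusted p = 0.0379). Fos, Fosb and Jund were below, and Atf3 above, in every tumor without overlap, against 12.3% of all genes below and 12.9% above. The Egr1 call was lost without any 1 of the 3 WT libraries or of tumors 1, 5 and 6, and the Junb call without WT_MSC 1 or 3 or any 1 of tumors 1, 2, 3, 5 and 6. Atf3 had a difference of 1.15 ± 0.41 and did not pass (limma adjusted p = 0.0692). Jun (-0.48), Egr2 (-0.88), Egr3 (0.37) and Ier2 (-1.28) did not pass either.

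Against KO MSCs alone, Fosb was the only gene of the 10 that passed, with a difference of -2.47 ± 0.56 (SE; limma adjusted p = 0.0292), where 4.98% of all genes passed, 2.28% lower. Fos differed by -2.26 ± 0.66 and missed the threshold (limma adjusted p = 0.0729). Junb (-1.32), Jund (-1.49) and Egr1 (-1.68) had the same sign as against WT MSCs and adjusted p of 0.139 to 0.216 by limma. Of the 10 genes, 3 did not overlap, against 13.4% of all genes in either direction: Fos and Fosb were below (5.39% of all genes) and Egr3 above. The Fosb call was lost without the library labelled KO_MSC 1, and also without tumor 1, 4, 5 or 6. All comparisons with tumors use the same 6 tumor libraries and are not independent.

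Between MSCs labelled KO and WT MSCs, none of the 10 genes passed, and of all 18948 genes 0.00% passed by limma, with 1637 (8.64%) at an unadjusted p under 0.05. Fos and Jund were the 2 of the 10 at an unadjusted p under 0.05. Fos differed by -1.69 ± 0.66 (SE; limma adjusted p = 0.559) and Jund by -1.33 ± 0.55 (limma adjusted p = 0.569). Jund was the gene without overlap, below WT MSCs, as were 8.93% of all genes. For Egr1 the difference was -1.06 ± 0.53, for Egr2 -0.61 ± 0.54, for Egr3 -0.52 ± 0.30, for Junb -0.51 ± 0.75, for Ier2 -0.37 ± 0.60 and for Jun -0.19 ± 0.71. Fosb (0.26 ± 0.72) and Atf3 (0.14 ± 0.40) were above 0. In all, 8 of 10 differences were below 0, against 52.5% of all genes, with a median of -0.51 against -0.01. Without WT_MSC 1 these were 5 of 10 and -0.049, against 48.8% of all genes below 0 and a median of 0.013, and without the library labelled KO_MSC 2 they were 6 of 10 and -0.24. Trp53 within or just below the WT range in 2 of the 3 libraries of this group bears on every value of this comparison.

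Within batches the genes divided into those that differed alike and those that did not. In batch 1, where 3 tumors stood against 1 library of each MSC group, and in batch 2, with 3 tumors against 2 of each, Fos differed from the mean of both MSC groups by -3.83 and -2.77. Fosb differed by -2.21 and -2.59, Jund by -2.27 and -2.19, and Egr1 by -2.29 and -2.31. The tumor mean of these 4 genes was lower by more than 2 log2 units in both batches. Single tumors still overlapped MSCs in batch 2 for Egr1 and Jund. Tumor 4 had 11.84 for Egr1, against 10.42 in KO_MSC 2, and 9.66 for Jund, against 9.37 in KO_MSC 3. Junb, by contrast, had -3.15 in batch 1 and -0.56 in batch 2, and Ier2 had -2.53 and -0.13. Jun (-1.69 and 0.57) and Egr2 (-1.74 and 0.25) changed sign. Atf3 had 0.29 and 1.74, without passing in batch 2, and Egr3 had 0.76 and 0.58. With 1 library in each MSC group, a fit of batch 1 alone holds no spread among MSCs of a group. Only its differences are given in the text. In batch 2 alone none of the 10 passed by limma, where 4.99% of all genes did, and 4 of the 10 were at an unadjusted p under 0.05, as were 4295 of all 18948 genes (22.7%). Whether the batches differ was not tested.

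**Figure D3:**
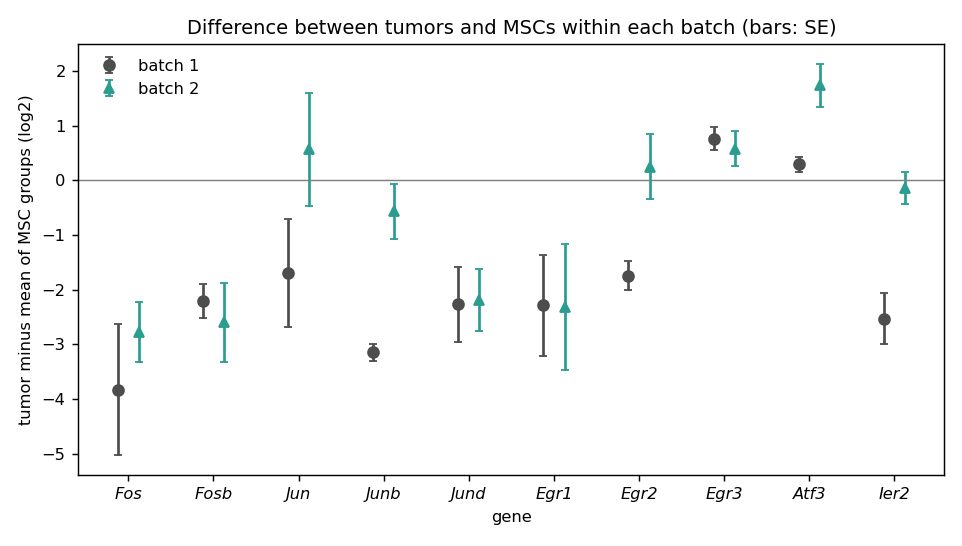
Difference between tumors and the mean of both MSC groups (log2, bars SE) for each gene in batch 1 (circles) and batch 2 (triangles). In batch 1 the SE rests on the spread of the tumors alone. Fos, Fosb, Jund and Egr1 lie at -2.19 or below in both, and Junb, Ier2, Jun and Egr2 lie closer to 0 or above it in batch 2.

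The libraries also differed as wholes. Each gene's values were set relative to its own mean over the 12 libraries and averaged over the 10 genes. The values were not scaled, so genes that varied more moved the averages more. The SD over libraries was 1.97 for Fos and 0.50 for Egr3. These averages were 1.41, 0.42 and 0.81 in WT_MSC 1 to 3 and 0.80, -0.37 and 0.45 in the libraries labelled KO_MSC 1 to 3. Tumors 1 to 6 had -0.88, -0.69, -0.71, 0.30, -0.55 and -0.99. WT_MSC 1 was the highest WT library for 6 genes (Fosb, Jun, Junb, Egr1, Egr2 and Ier2), and WT_MSC 2 the lowest for 7. The library labelled KO_MSC 2 was the lowest KO library for 8 of the 10 genes. Among tumors, tumor 4 was the highest for 6 genes, Jun, Junb, Egr1, Egr2, Atf3 and Ier2, and at the same time the lowest for Fosb.

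**Figure D4:**
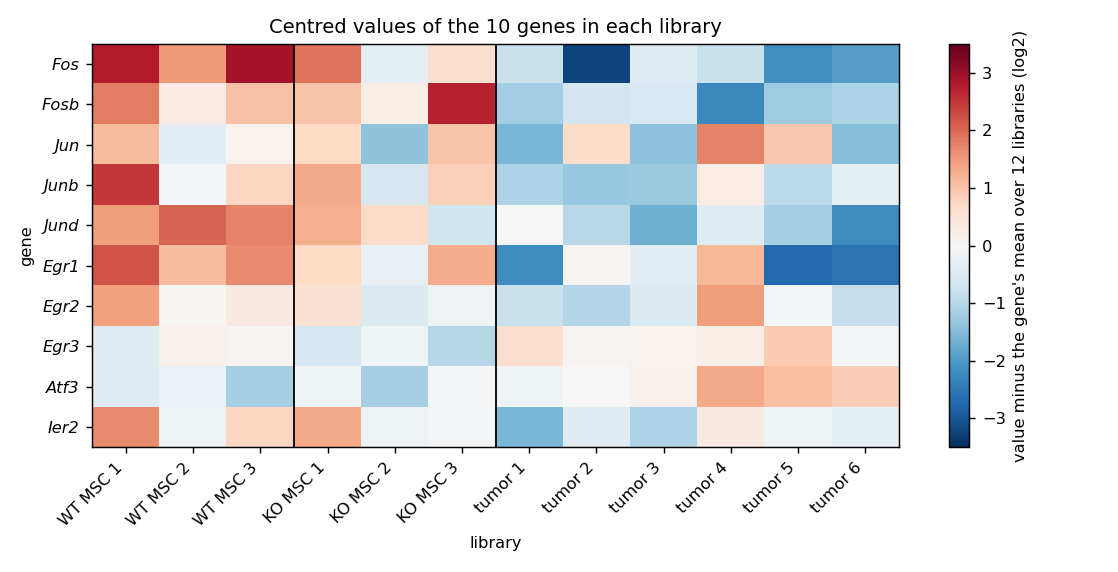
Value of each gene minus its own mean over the 12 libraries (log2), in each library; red is above and blue below the mean. WT_MSC 1 is red for all genes except Egr3 and Atf3, and tumor 4 is the tumor with most red, with Fosb at -2.25.

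Differences between pairs of genes in the same library show how the family's balance varied. Fos minus Jun averaged 1.26 ± 0.59 (SD, n = 3) in WT MSCs, -0.23 ± 0.93 (SD, n = 3) in KO MSCs and -2.20 ± 2.09 (SD, n = 6) in tumors. Its range in tumors was -4.74 to 0.12, which overlapped the MSC range of -1.30 to 1.93. For Atf3 minus Fos, the means were -6.91 ± 1.20, -5.08 ± 0.78 and -1.81 ± 1.22. These are changes in a difference across libraries, since without gene length the difference itself is no ratio of transcript levels.

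Cell-type markers moved with these groups. MSCs were sorted on LepR, CD140a, CD45, Ter119 and CD31, so stromal, blood and endothelial marker levels in MSCs are not independent of the sort. In tumors against the mean of both MSC groups, 9.47% of all genes passed lower and 13.4% higher. All 8 LepR stromal markers (Lepr, Pdgfra, Cxcl12 and others) passed lower there. Their mean level was 12.59 to 13.63 in WT MSCs, 11.34 to 12.10 in KO MSCs and 6.74 to 8.99 in tumors. All 8 macrophage markers passed higher. Their mean level was 5.36 to 7.25 in the 6 MSC libraries, with up to 4 of the 8 at the floor (Adgre1, C1qa, C1qb and Aif1 in KO_MSC 3), and 11.24 to 14.81 in tumors with none at the floor. Tumor 4, the tumor with the highest Jun, Junb, Egr1, Egr2, Atf3 and Ier2, had the highest mean of macrophage markers (14.81), and also of skeletal muscle markers (12.81, against 5.18 to 9.92 in the other tumors). It was the highest tumor for endothelial markers too (8.88), but not for stromal, neutrophil, erythroid or lymphocyte markers. Its median over all genes, 6.05, was also the highest of the 12 libraries. Endothelial markers, 8 of 8 higher, had means of 6.97 to 8.88 in tumors and 5.19 to 5.87 in MSCs. Neutrophil markers, 7 of 7 tested lower, had means of 7.32 to 12.94 in MSCs and 5.35 to 7.93 in tumors, and were highest in WT_MSC 1 and the library labelled KO_MSC 1. Erythroid markers, 4 of 8 lower and 4 not passed, had means of 9.05 to 12.18 in MSCs and 6.77 to 10.28 in tumors, and were highest in WT_MSC 1 (12.18) and next in the library labelled KO_MSC 1 (11.55). Lymphocyte markers, 4 of 8 higher and 4 not passed, had means of 5.07 to 6.19 in MSCs, with up to 7 of the 8 at the floor, and 5.71 to 7.30 in tumors. Against KO MSCs alone, where 4.98% of all genes passed, 5 of 8 stromal markers passed lower, and Pdgfra, at -0.22 ± 0.55 (SE), did not pass. Neutrophil and erythroid markers passed lower there in 5 of 7 and 3 of 8. Macrophage, endothelial and lymphocyte markers passed higher there in 8, 4 and 2 of 8. The part of these cell types in the differences of the 10 genes was not tested.

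Of 13 further AP-1, BATF and MAF genes, 5 rose, 1 fell and 7 did not pass against the mean of both MSC groups, and their median was 1.04. Over all genes tested, 13.4% passed higher and 9.47% lower, with a median of -0.02. Batf3, which dendritic cells need, rose by 2.20 ± 0.37 (SE; limma adjusted p = 0.00147). Fosl2, the Fra-2 gene of the Fos family, rose by 2.09 ± 0.48 (0.00754), while Fos and Fosb fell in the same libraries. The Fosl2 call was lost without both batch 1 MSC libraries, where those of Fos and Fosb held. Batf, a lymphocyte factor, rose by 1.28, and the small Maf genes Maff and Mafg by 1.04 each. Mafk, the third small Maf gene, named after its value was seen, fell by 1.37 ± 0.42. The call of Batf was lost without WT_MSC 1, KO_MSC 1 or KO_MSC 2, that of Maff without WT_MSC 1, KO_MSC 1 or tumor 2, 3 or 5, and that of Mafg without any WT_MSC library, KO_MSC 2 or tumor 4 or 5. The call of Mafk held in 13 of 24 other settings and was lost without WT_MSC 1 or 3, KO_MSC 1 or 2, or any tumor but tumor 4. In KO against WT MSCs none of the 13 passed. Jdp2 differed by -1.24 and Batf2 by -0.66.

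Of 20 further immediate early genes tested, 1 rose, 2 fell and 17 did not pass, with a median of -0.28. The shares over all genes were 13.4% higher and 9.47% lower. Klf4, a Krüppel-like factor, rose by 2.81 ± 0.46 (SE; limma adjusted p = 0.00119). Ctgf and Cyr61, secreted CCN proteins that are targets of YAP as well as of SRF, fell by 2.17 ± 0.59 and 1.94 ± 0.53 (limma adjusted p = 0.0187 and 0.0184). The Ctgf call was lost without WT_MSC 1, and the calls of Ctgf and Cyr61 without both batch 1 MSC libraries. Sik1 (-1.13) and Nr4a2 (0.77), a CREB-responsive kinase and an orphan nuclear receptor, did not pass. Between KO and WT MSCs, Cyr61 (-2.47), Ctgf (-1.71) and Klf6 (-1.31) had the smallest p of this list, and none passed (limma adjusted p = 0.551 for each).

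Feedback genes, which end the response, gave 4 falls, 1 rise and 10 not passed among 15, with a median of 0.18. Among all genes 9.47% passed lower and 13.4% higher. Socs3, the JAK-STAT inhibitor, fell by 3.68 ± 0.40 (SE; limma adjusted p = 0.000165) and was called in all 24 other settings. Spry1, an inhibitor of receptor tyrosine kinase signalling, fell by 2.48 ± 0.39, Dusp1, a MAP kinase phosphatase, by 1.72 ± 0.44, and Zfp36, which destabilizes AU-rich mRNAs such as that of Fos, by 1.69 ± 0.32. Without both batch 1 MSC libraries the Dusp1 call was lost. Nab1, a corepressor of EGR proteins, rose by 1.14 ± 0.36, a call lost without any WT_MSC library, KO_MSC 2, tumor 5 or tumor 6. In KO MSCs against WT MSCs, Spry4 (-1.66), Trib1 (-1.59) and Socs3 (-1.59) did not pass (limma adjusted p = 0.551 for each). There 13 of the 15 differences were below 0, against 52.5% of all genes.

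Upstream kinases and promoter factors gave 3 rises, 1 fall and 11 not passed among 15, with a median of -0.06. Of all genes tested, 13.4% passed higher and 9.47% lower. Elk3, an SRF partner that can repress Fos, rose by 2.01 ± 0.38 (SE; limma adjusted p = 0.00276). The SRF coactivator gene Mkl2 rose by 1.34 ± 0.32, and Rps6ka3, a kinase below ERK, by 1.11 ± 0.36. Mkl2 lost its call without both batch 1 MSC libraries. The call of Rps6ka3 held in 8 of 24 other settings, and of the 12 fits without 1 library in 2, those without KO_MSC 2 or tumor 4. Mapk14, which encodes p38 alpha, fell by 1.58 ± 0.30 (limma adjusted p = 0.00246), and Rps6ka5 (-0.86) did not pass. Elk3 (-1.11) and Mapk9 (-0.77) did not pass between KO and WT MSCs.

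Heat shock genes are a second class known to rise in handled tissue. Of 8, 1 rose, 2 fell and 5 did not pass in tumors, with a median of -0.36, where 13.4% of all genes rose and 9.47% fell. Hspe1, a mitochondrial co-chaperone, rose by 2.85 ± 0.55 (SE; limma adjusted p = 0.00298). Dnajb1, a cytosolic co-chaperone, fell by 1.28 ± 0.29 (0.00711) and Hspa1a, the inducible HSP70 gene, by 2.24 ± 0.75 (0.0461). Leaving out both batch 1 MSC libraries ended the Dnajb1 call. The call of Hspa1a held in 10 of 24 other settings, and of the 12 fits without 1 library in 3, those without WT_MSC 2, KO_MSC 3 or tumor 4. Hspa1b, its near-identical neighbour, differed by -2.09 and did not pass, and reads could be divided between that pair in ways not known here. Hsp90aa1 (1.38) did not pass. Their mean level ranged from 9.37 to 10.02 in WT MSCs, 9.28 to 10.67 in KO MSCs and 8.98 to 11.12 in tumors, so the groups overlapped. Hspe1 (1.60), Hspb1 (-0.92) and Dnajb1 (0.64) did not pass between KO and WT MSCs.

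**Figure D5:**
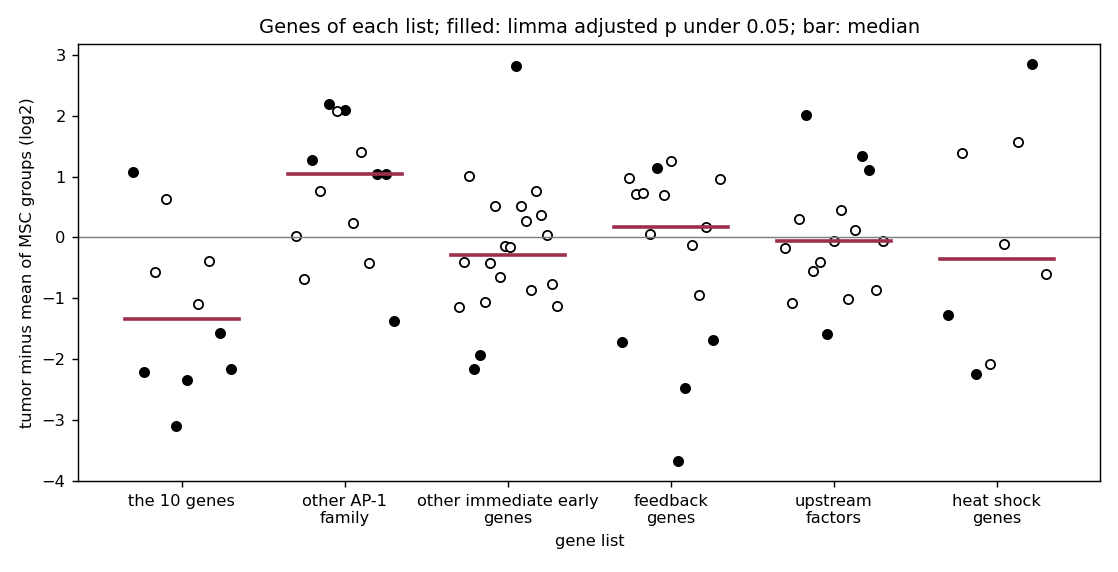
Difference between tumors and the mean of both MSC groups (log2) for each gene of the 10 and of 5 context lists; filled points have a limma adjusted p under 0.05 and bars are medians. The medians are -1.34 for the 10 genes, 1.04 for the other AP-1 family, -0.28, 0.18, -0.06 and -0.36 for the rest.

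The genes whose pattern over the 12 libraries was most like the average of the 10 were sought among 16404 genes by the root mean square difference of centred values. The closest were Arhgap26 (0.308), Sugp2 (0.308), Nck2 (0.314), Slc9a8 (0.318) and Pi4kb (0.330). All 5 had their highest group mean in WT MSCs and their lowest in tumors, for example 8.11, 7.33 and 6.43 for Arhgap26 in WT MSCs, KO MSCs and tumors. That order follows from choosing genes by their likeness to the average of the 10, and is no separate result. Among the 10 genes themselves, Ier2 (0.438), Egr2 (0.463) and Junb (0.520) lay closest to that average, which they are part of, and Fos (1.29) and Atf3 (1.24) farthest from it. By Pearson correlation, only Nck2 of those 5 stayed among the 5 nearest genes, with Bag5, Thsd7a, Zfp36 and Sulf1.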

How the data were processed

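Values were the authors' deposited log2 values of 24421 genes, titled as variance-stabilized and batch-adjusted. The submitters' processing notes name build mm10, Cufflinks 2.2.1, Cuffdiff and TopHat2 2.0.13 without their order; the stabilization and batch tools are not stated. A second deposited table, titled as normalized counts, holds a score: for 100% of its 18949 genes it is the rounded value of 100 times the log2 value over a constant of the library. No counts were recovered, so depth is unknown and precision rests on the number of libraries. Since the values were logarithms already, limma was run on them with no pseudocount.

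Each comparison was fitted with limma 3.58.1 in R 4.3.3 (lmFit, eBayes with trend, two-sided, no covariates) on its own groups. Tumor against the mean of both MSC groups was fitted on all 12 libraries. Benjamini-Hochberg adjustment ran over 18948 genes, and an adjusted p under 0.05 passed. The script was tested on simulated data. Floors shared exactly by libraries gave the batches: at least 545 identical values within and 0 across them. P-values take no account of the authors' batch adjustment and can be too small.

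The members and lists were chosen with earlier results of these data known. Named genes were all 10 members and, of each list, up to 5 with the smallest p in tumor against both MSC groups and up to 3 in KO against WT MSC, plus the 5 genes most like the members and Trp53; some genes that this rule took are not reported here. Alternatives were scaling, filter, trend, the score table, library weights, a batch term, each batch, a replicate block, 1 fit of all groups, both MSC groups as 1 and each library left out. Leaving out both batch 1 MSC libraries and taking off the batch shift were chosen after seeing the data. Gene positions are from GENCODE M21.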

Additional observations from a re-analysis of the deposited data

Results flagged for a closer look

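Of 44 genes examined in the 6 tumors, 1 had a library far from the others. Hspe1 was 11.23 in tumor 4 and 12.98 to 13.86 in the 5 other tumors; the gap to the nearest was 0.667 of the whole range, above Dixon's critical value of 0.625. Chance flags about 1 in 20 such groups.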

How the results depend on the processing

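Of the members' differences under the alternatives, 694 kept direction and, where tested, call, 70 lost the call, 20 gained it, 23 changed sign and 3 without a test moved. Those without a test were KO against WT MSC in batch 1 alone. There Fosb was 8.28 in WT_MSC 1 and 7.48 in KO_MSC 1, against the sign of the main difference (0.26), and was counted as moved. Depth is unknown and limits what low genes such as Fosb, Egr3 and Atf3 can show. With batch 2 alone, 43 genes were called for KO against WT MSC, 27 for tumor against KO MSC, 540 against WT MSC and 946 against both, with 0 members in each tumor comparison. With batch 1 alone, 3247 genes and 1 member were called for tumor against KO MSC, 2809 and 1 against WT MSC, and 4294 and 3 against both. Library weights, whose estimation did not converge in 3 of 4 comparisons, gave 2447, 4821, 6821 and 6572 genes, with 3 members for KO against WT MSC and 3 for tumor against KO MSC. One fit of all groups gave 1923 genes and 2 members for tumor against KO MSC. Quantile scaling gave 1481 genes there (520 higher and 961 lower, against 512 and 432), and against both MSC groups 2308 higher and 2806 lower (main 2537 and 1795). Without both batch 1 MSC libraries, 1782 genes and 3 members were called against both.

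Same-numbered WT and KO MSC libraries had correlated deviations of 0.238, 0.152 and -0.148 across genes, so numbers were not taken as pairs, and not every library was closest to its own number. A replicate block gave 34 genes and 0 members for tumor against KO MSC, 1445 and 2 against WT MSC, and 3064 and 5 against both, and 0 for KO against WT MSC.

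Leaving out 1 library at a time gave 113 to 1627 genes and 0 to 1 members for tumor against KO MSC (113 without KO_MSC 1, 396 without KO_MSC 2, 1627 without KO_MSC 3, 597 without tumor 5, 621 without tumor 6), 1856 to 4737 and 3 to 7 against WT MSC (1856, 2339 and 2268 genes without WT_MSC 1, 2 and 3; 3 members without WT_MSC 1, WT_MSC 3, tumor 5 or tumor 6), and 2820 to 5837 and 3 to 7 against both (2820 genes without WT_MSC 1; 3 members without WT_MSC 1, KO_MSC 1 or tumor 5, and 4 without tumor 6).

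Signs turned with library weights for Fosb (-0.45) and Atf3 (-0.22) in KO against WT MSC and for Jun (0.59) in tumor against KO MSC. In batch 2 alone they turned against KO MSC for Jun (0.60), Egr2 (0.49) and Ier2 (0.058), against WT MSC for Jun (0.53) and Egr2 (0.022), and against both for Jun (0.57) and Egr2 (0.25). Without single libraries, KO against WT MSC differences ranged from -0.44 to 0.81 for Fosb, -0.64 to 0.57 for Jun, -1.07 to 0.20 for Junb, -0.14 to 0.50 for Atf3 and -0.85 to 0.094 for Ier2, and tumor against KO MSC differences from -1.04 to 0.16 for Jun and -0.61 to 0.0064 for Egr2. Of the 5 most-like genes, 1 was shared with the ranking by Pearson correlation. The cause of these changes was not tested.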
